A study of Mus musculus with 6 samples.

Results

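The 89 transcripts described here were nearly absent from mouse zygotes, were present in 2-cell embryos, and carried few reads with the mark of recent synthesis. They were chosen from 23259 gene names by 3 measured values. A gene had at most 20 reads in WT zygotes, at least 300 reads in WT 2-cell embryos, and a T-to-C share under 2% in 2-cell embryos. The T-to-C share is the percentage of a gene's reads with a T-to-C mismatch. Names of the Hist, Zfp, Slc, Tdpoz, Dub, Zscan4, Rprl, Obox and Nlrp families and names turned into dates were left out by the rule. The read limits alone, after names were left out, held 171 genes, of which 82 had a share of 2% or more and are called the other gained genes below. The 2 read limits and the share chose the members, so these values are a description with no test.

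S4U (4-thiouridine) is a uridine analog that cells build into new RNA, and iodoacetamide alkylates it so that reverse transcription reads it as C. RNA made before labelling keeps its T, so a T-to-C read is taken as a mark of RNA made while the analog was present. How many T-to-C reads arise without the analog is unknown here. Mouse oocytes store maternal mRNA that is cleared after fertilisation, and the embryonic genome is transcribed weakly in the zygote and strongly from the 2-cell stage. PABPN1L binds poly(A) tails in the oocyte and zygote and takes part in maternal mRNA clearance. Many transcripts of the 2-cell embryo come from young multicopy gene families, and others are immediate-early, stress and housekeeping genes.

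The study had 3 groups of 2 samples, each of 50 embryos: zygotes of WT genotype, 2-cell embryos of WT genotype, and zygotes labelled Pabpn1l-null. The protocol, worded for zygotes and the same for all groups, took embryos of mated females at 26 h after injection of hCG, the hormone used to time ovulation, and labelled them with 200 μM S4U for 2 h. Strain, age, the design of the null allele, whether its lack was maternal or embryonic, and the labelling time of 2-cell embryos were not given in the labels. No unlabelled sample was among those used here, so the T-to-C share of RNA without S4U is unknown.

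The deposited table has 1 set of columns per group, so there is no replicate spread for any value below and no test of a condition. Intervals are exact 95% intervals and cover counting error only, since PCR copies were not marked. Where 3 values follow each other, they stand in the order of WT zygote, null zygote and 2-cell column. Named genes held 3001472, 1270347 and 4020444 reads, with T-to-C shares of 3.03%, 3.86% and 4.54%. Pabpn1l itself had 47, 4 and 14 reads. From the number of genes at 0 in null zygotes, about 7 reads per molecule were estimated, and 7 reads were counted there as 1 molecule. The estimate takes levels as equal in the 2 kinds of zygote, and groups of reads were not seen directly. Markers of oocytes and zygotes (10 genes) summed to 40874, 22789 and 12180 reads. Markers of 2-cell embryos (7 of 8 in the table) summed to 55, 8 and 10825 reads, so both sets follow the labels. Markers of cumulus and granulosa cells (14 genes) summed to 148, 27 and 86 reads with 6 at 0 throughout, those of sperm (8 genes) to 8, 0 and 4, and those of blood to 42, 1 and 39.

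In their promoters 5 members carry a word of 13 bases that few other promoters hold, and their sequences are shown because sequence did not enter the choice of members. A promoter here is the 250 bases before the annotated start in RefSeq on GRCm38.p6, and 68 of the 89 members had one. The word CACACCTTTAATC, searched on both strands, was noticed in the promoter of Gm4340 and then counted, so it was chosen after the sequences were seen. Below are the 160 bases before each start, 5′ to 3′ on the gene's strand, with each copy of the word in capitals; GATTAAAGGTGTG is the word on the other strand.
Gm4340, chr10:104193882-104194041, plus strand: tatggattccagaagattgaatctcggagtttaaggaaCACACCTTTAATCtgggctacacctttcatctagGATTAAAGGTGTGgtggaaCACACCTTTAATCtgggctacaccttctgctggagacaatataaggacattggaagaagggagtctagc
Gm10696, chr3:94178194-94178353, minus strand: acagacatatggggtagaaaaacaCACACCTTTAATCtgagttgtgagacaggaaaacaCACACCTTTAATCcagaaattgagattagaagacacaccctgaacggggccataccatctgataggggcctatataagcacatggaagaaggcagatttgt
Gm5891, chr7:21921292-21921451, minus strand: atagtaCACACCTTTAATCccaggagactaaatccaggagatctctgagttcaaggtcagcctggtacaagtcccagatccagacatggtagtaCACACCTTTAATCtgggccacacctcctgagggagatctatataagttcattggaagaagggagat
B020004J07Rik, chr4:101844023-101844182, minus strand: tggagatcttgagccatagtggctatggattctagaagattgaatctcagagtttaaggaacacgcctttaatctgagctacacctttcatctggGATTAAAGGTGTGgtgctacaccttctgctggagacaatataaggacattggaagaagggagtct
Gm12789, chr4:101986680-101986839, plus strand: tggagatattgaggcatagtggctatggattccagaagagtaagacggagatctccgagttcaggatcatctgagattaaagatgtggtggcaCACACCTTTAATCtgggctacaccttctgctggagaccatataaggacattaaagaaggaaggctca
Over 60 bases from the last copy of the word on the gene's strand, Gm12789 and Gm4340 had 53 bases in common (88.3%) and Gm4340 and Gm5891 had 39 (65%), while Gm10696 had 35% to 40% in common with each of these.

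The word was in 5 of 68 member promoters (7.35%, 2.43% to 16.3%), in 3 of 62 promoters of the other gained genes (4.84%), in 1 of 1250 promoters of stored transcripts and in 45 of 27025 of all promoters (0.167%). Stored transcripts are the 1537 genes with at least 300 reads in both WT zygotes and 2-cell embryos. The members with the word all belong to the gene families and predicted genes, and 0 of the 56 promoters of other members held it. Of the genes with the word, 22 were in the table and 19 had at least 20 reads over the 3 columns. The 2-cell level was at least 4-fold higher than the WT zygote level for 16 of the 19 (84.2%), and at least 4-fold lower for 0, where 18.7% of all 11262 genes with at least 20 reads were higher and 14.9% lower. Of the 16, 5 are members, whose gain the rule fixed. Among the 14 genes with the word that are not members, 11 were higher. These 11 include 3 other gained genes, and Zfp352 and Tdpoz1, left out by name, which met the same read limits. Their gain was fixed too, so nothing is read from the 16 of 19 or the 11 of 14. Of the 19, 13 had under 20 reads in both zygote columns together and passed the filter through the 2-cell column. Of the other 6, 3 were higher. The share over all genes with at least 20 zygote reads was not computed, so nothing is read from the 3 of 6. Genes with the word are often related copies, so they are not independent of each other. Promoters of many 2-cell transcripts are known to lie in repeats, but no annotation of repeats was used, and whether these stretches are repeats was not tested.

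The 56 promoters of members outside these families had a median GC content of 61.2%. Stretches of 150 bases are shown for Nrarp and Rpp25, the 2 members with at least 500 reads and the lowest shares, for Jun, an immediate-early gene, and for Unc119b, listed at 0 reads in both zygote columns. The GC box GGGCGG, which reads CCGCCC on the other strand, is in capitals. The same is done for the CCAAT box, which has no copy on the other strand in these stretches.
Nrarp, chr2:25180608-25180757, plus strand: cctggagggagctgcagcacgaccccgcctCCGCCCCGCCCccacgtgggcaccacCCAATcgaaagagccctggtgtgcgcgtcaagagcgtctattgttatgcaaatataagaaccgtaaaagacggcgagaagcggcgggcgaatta
Rpp25, chr9:57503952-57504101, plus strand: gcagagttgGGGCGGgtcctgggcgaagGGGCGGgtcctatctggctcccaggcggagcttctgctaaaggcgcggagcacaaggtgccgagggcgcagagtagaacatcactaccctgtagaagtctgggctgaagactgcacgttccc
Jun, chr4:95052223-95052372, minus strand: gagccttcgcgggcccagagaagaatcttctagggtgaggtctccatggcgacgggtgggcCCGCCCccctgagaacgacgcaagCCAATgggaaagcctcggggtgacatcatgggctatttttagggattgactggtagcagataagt
Unc119b, chr5:115134976-115135125, minus strand: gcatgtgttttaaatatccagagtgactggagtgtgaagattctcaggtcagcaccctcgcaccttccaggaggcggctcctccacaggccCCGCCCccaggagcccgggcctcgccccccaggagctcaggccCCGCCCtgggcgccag
GGGCGG was in 37 of 68 member promoters (54.4%), 51.6% of those of the other gained genes, 65.1% of those of stored transcripts and 32.9% of all. CCAAT was in 34 member promoters (50.0%), against 41.9%, 37.8% and 34.5% in the same sets. TATAAA was in 5 member promoters (7.35%), against 8.06%, 5.92% and 13.0%. CACCC was in 42 (61.8%), against 64.5%, 55.4% and 51.3%, and TAATCC in 6 (8.82%), against 14.5%, 4.64% and 6.37%. The E-box word CACGTG was in 4 member promoters (5.88%), against 11.3%, 8.48% and 6.04%. The cyclic AMP response word TGACGTCA was in 2 (2.94%), against 0%, 3.76% and 1.61%. The E2F word TTTCCCGC was in 0 of 68, against 1.61%, 2.00% and 0.925%, and the nuclear receptor word AAGGTCA in 2 (2.94%), against 3.23%, 1.92% and 4.06%. The heat shock word GAANNTTC was in 6 (8.82%), against 4.84%, 5.12% and 6.78%. The ETS word CCGGAAG was in 9 (13.2%), against 8.06%, 12% and 7.06%, and the octamer ATGCAAAT in 1 (1.47%), against 3.23%, 1.04% and 1.62%. All words were searched on both strands. The median GC content of member promoters was 59.6%, against 60.4% for the other gained genes, 62.8% for stored transcripts and 52.0% for all. A match describes the letters of the window and says nothing of a factor's binding.

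**Figure D1:**
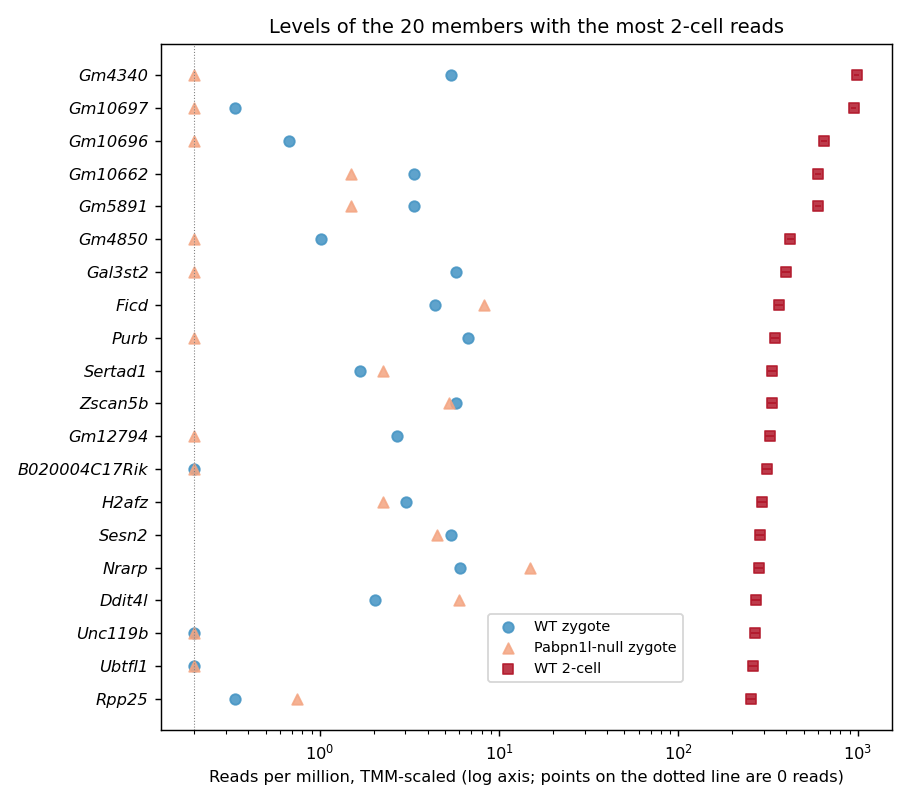
Levels of the 20 members with the most 2-cell reads. The x axis is RPM after TMM scaling on a log axis, each row is a gene, the 3 markers are the 3 columns of the table, bars within the squares are 95% counting intervals of the 2-cell level, and points on the dotted line had 0 reads. The 2-cell squares lie between 255 and 986, far to the right of both zygote markers, as the choice of members requires.

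Together the members held 66293 reads in 2-cell embryos (1.65% of that column), 636 in WT zygotes (0.0212%) and 233 in null zygotes (0.0183%). Scaled to RPM, the reads of a gene relative to its column's TMM-adjusted total, their summed level was 17186 in 2-cell embryos, 214 in WT zygotes and 174 in null zygotes. A member's 2-cell reads ran from 302 to 3805 with a median of 562; 19 members had at least 1000 reads and 38 had under 500. In WT zygotes 15 members had 0 reads, and in null zygotes 59 had 0. All 89 were at least 4-fold higher in 2-cell embryos than in WT zygotes, beside 18.7% of all genes tested; the rule fixed this count, so nothing is read from it. Pooled embryos cannot tell apart fewer cells with a transcript from less of it per cell. Members lay on 19 chromosomes, at most 9 on one. RefSeq held 87 of them, and 83 were protein coding.

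The members with the most 2-cell reads were among the 18 that belong to gene families or are predicted genes. Reads are not divided by transcript length, so this order is one of reads and not of molecules. Related copies may share reads, which the files cannot resolve. Gm4340 (chr10:104194042-104196522) had 16, 0 and 3805 reads (WT zygote, null zygote, 2-cell), and 35 of the 3805 were T-to-C reads (0.920%, 0.642% to 1.28%). Its 2-cell level was 986 RPM, 183-fold the WT zygote level (112 to 320). Gm4340 is one of the transcripts commonly used to mark the 2-cell state in cultured cells.

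Gm10697 (chr3:94071622-94072644, named Tdpoz7 in RefSeq) had 1, 0 and 3670 reads, with 59 T-to-C reads in 2-cell embryos (1.61%). Its values are those of Tdpoz5, a gene that the rule left out by its name, so the reads of these copies were not told apart. Gm10696 (chr3:94174412-94178193, Spopfm2 in RefSeq) had 2, 0 and 2487 reads and 46 T-to-C reads (1.85%). Genes of this kind code for proteins with the TRAF and POZ domains found in ubiquitin ligase adaptors. Gm10662 and Gm5891, both on chromosome 7, had the same values, 10, 2 and 2319 reads with 36 T-to-C reads (1.55%), and were counted once in sums. Gm4850 had 3, 0 and 1624 reads with 20 T-to-C reads (1.23%). B020004C17Rik had 0, 0 and 1200 reads with 16 T-to-C reads (1.33%). Its 2-cell level was 307-fold that of a floor of 3 WT zygote reads, and the exact interval of the fold starts at 249.7. Every one of these genes had under 3 reads in null zygotes.

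Ubtfl1 (chr9:18404418-18411502), a relative of the ribosomal RNA transcription factor UBF that is active in early embryos, had 0, 0 and 1002 reads and 13 T-to-C reads (1.30%), at least 257-fold higher than the floor, with an interval from 208. Rpl10l, a copy of the ribosomal protein gene Rpl10 that is known from the testis, had 15, 19 and 559 reads and 7 T-to-C reads (1.25%). Its 19 reads in null zygotes were next to the most of any member, the 20 of Nrarp, an inhibitor of Notch signalling.

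The Pramel genes code for leucine-rich repeat proteins of germ cells and early embryos, and they fell on both sides of the 2% limit. Gm12794 (Pramel19 in RefSeq) had 8, 0 and 1242 reads and 7 T-to-C reads (0.564%, 0.227% to 1.16%). Pramel7 had 0, 0 and 523 reads and 3 T-to-C reads (0.574%). B020004J07Rik (Pramel17) had 0, 0 and 662 reads and 11 T-to-C reads (1.66%). Another member, Pramel42 in RefSeq, had a share of 1.67%. Among the other gained genes, Pramel1 had 9.10%, and those that RefSeq names Pramel24, Pramel16, Pramel21 and Pramel39 had 13.7%, 19.6%, 4.43% and 4.72%. Thus the family's gained members spanned 0.564% to 19.6% within the 2-cell column.

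Transcription was the role of 21 members. Purb, a single-stranded DNA-binding repressor, had 20, 0 and 1337 reads and 18 T-to-C reads (1.35%). Sertad1, a coregulator of E2F and cyclin-dependent kinase activity, had 5, 3 and 1287 reads and 22 T-to-C reads (1.71%). Zscan5b, a zinc-finger protein with a SCAN domain, had 17, 7 and 1282 reads and 23 T-to-C reads (1.79%). All 3 had over 1000 reads in 2-cell embryos and at most 20 in either zygote column.

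Nrarp (chr2:25180758-25183339), an ankyrin-repeat inhibitor of Notch signalling that is itself a Notch target, had the lowest share of the members with at least 500 reads. It had 18, 20 and 1079 reads, and 3 of the 1079 were T-to-C reads (0.278%, 0.0574% to 0.810%). The 20 reads in null zygotes were the most of any member and under the floor of 21. Hes1 (chr16:30065357-30067796), a repressor induced by Notch, had 7, 0 and 421 reads. None of its 421 reads was a T-to-C read, which allows a share of up to 0.713% by a limit of 3 counts, and of up to 0.872% by the exact interval. Pou3f1, a POU-domain factor, also had none in 463 reads (up to 0.648% by 3 counts and 0.794% by the interval), with 2 reads in WT zygotes and 0 in null zygotes. Fam38b, also known as Piezo2 and coding for a mechanosensitive channel, was the only other member with none, in 302 reads (up to 0.993% and 1.21%). Hes1 and Pou3f1 were singled out after their values were seen. Of the 2569 genes with at least 300 reads in 2-cell embryos, 27 had no T-to-C read there, 10 of them stored.

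Uncx, a homeobox factor, and Gtf2e1, a subunit of the general factor TFIIE, had 1 T-to-C read each, in 396 and 391 reads (0.253% and 0.256%). Some immediate-early genes were also among the members. Jun (chr4:95049036-95052222), a subunit of the AP-1 factor, had 11, 1 and 461 reads and 4 T-to-C reads (0.868%). Ier2 had 4, 0 and 454 reads and 8 T-to-C reads (1.76%), and Ier5 had 5, 0 and 500 reads and 6 (1.20%). In other cells these genes are known for fast induction and short-lived mRNA. Etv5, an ETS factor, had 20, 10 and 574 reads and 4 T-to-C reads (0.697%). Cebpa, a bZIP factor of fat and myeloid cells, had 1, 0 and 511 reads and 10 T-to-C reads (1.96%). Gata2, a zinc-finger factor of blood and trophoblast, had 8, 19 and 337 reads and 2 T-to-C reads (0.593%). Tsc22d3, a glucocorticoid-induced leucine zipper protein, had 1, 16 and 364 reads and 7 T-to-C reads (1.92%). Gata2 and Tsc22d3, like Nrarp, had more reads in null than in WT zygotes, all under the floor of 21. Jun, Ier2, Ier5, Uncx, Gtf2e1 and Cebpa, and the other Jun, Fos, Ier and Egr genes, were singled out after their values were seen.

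Chromatin or DNA replication was the role of 6 members. H2afz (chr3:137864487-137866922), the gene of the histone variant H2A.Z, had 9, 3 and 1127 reads and 13 T-to-C reads (1.15%, 0.616% to 1.96%). Suv39h1, a histone H3 lysine 9 methyltransferase, had 8, 0 and 734 reads and 10 T-to-C reads (1.36%). Cbx3, the gene of the heterochromatin protein HP1 gamma that binds the mark SUV39H1 makes, had 9, 0 and 641 reads and 8 T-to-C reads (1.25%). Suv39h1 and Cbx3 had 8 to 9 reads in WT zygotes and none in null zygotes, where 66.3% of the members had 0, so nothing is read from these zeros. Both were singled out after their values were seen.

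RNA processing or ribosome assembly was the role of 7 members. Rpp25 (chr9:57504102-57505447), a protein subunit of RNase P and RNase MRP, had 1, 1 and 983 reads and 3 T-to-C reads (0.305%, 0.0630% to 0.889%). C1d, a cofactor of the RNA exosome, had 3, 0 and 977 reads and 12 T-to-C reads (1.23%). Clp1, an RNA kinase of mRNA 3′ end formation and tRNA splicing, had 5, 0 and 903 reads and 11 T-to-C reads (1.22%). The pooled share of the 7 was 1.07% (0.782% to 1.43%).

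Another 10 members act in stress responses, as kinases or in the ubiquitin system. Ficd (chr5:113735758-113740607), which modifies the endoplasmic reticulum chaperone BiP, had 13, 11 and 1406 reads and 24 T-to-C reads (1.71%). Sesn2 and Ddit4l, both stress-induced inhibitors of mTORC1 signalling, had 16, 6 and 1096 reads and 6, 8 and 1044 reads. Their T-to-C reads were 19 (1.73%) and 15 (1.44%). Arih2, a ubiquitin ligase, had 15, 17 and 377 reads and 6 T-to-C reads (1.59%). Hspa1a, a gene of the heat-inducible chaperone HSP70 that is known as an early product of the embryonic genome, had 6, 1 and 315 reads and 2 T-to-C reads (0.635%). Hspa1a was singled out after its values were seen, and it has a near-identical copy with which reads may be shared.

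The 17 members of metabolism, membranes and the cytoskeleton had 302 to 1539 reads in 2-cell embryos and shares of 0% to 1.96%. Gal3st2 (chr1:93861344-93876494), a sulfotransferase of sugar chains, had 17, 0 and 1539 reads and 9 T-to-C reads (0.585%, 0.268% to 1.11%). Unc119b (chr5:115122566-115134975), a carrier of lipid-modified proteins to the cilium, had 0, 0 and 1037 reads and 9 T-to-C reads (0.868%, 0.398% to 1.64%). Its 2-cell level was 266-fold that of a floor of 3 WT zygote reads, with an exact interval from 216. The last 10 members had no role assigned or one outside these groups, with 309 to 645 reads in 2-cell embryos.

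**Figure D2:**
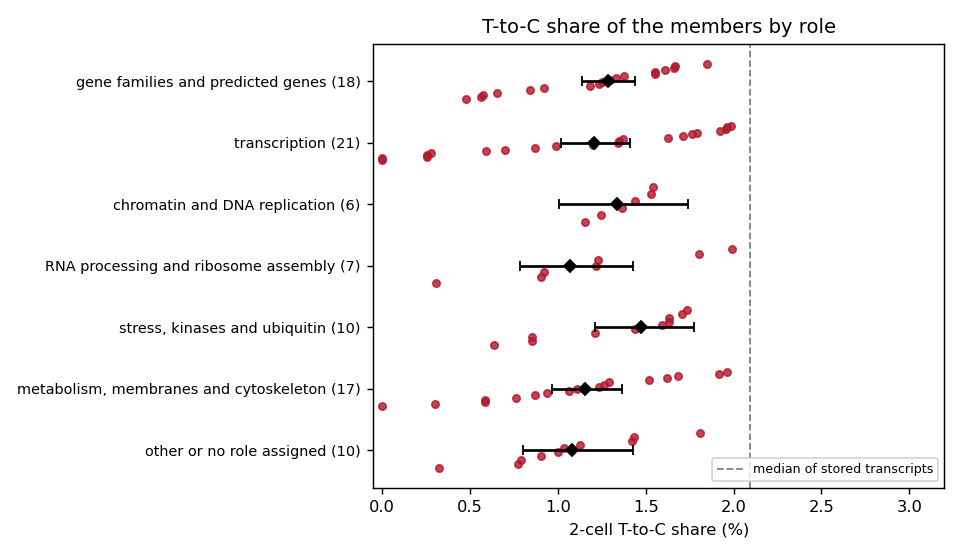
T-to-C share of the members in 2-cell embryos by role. Red points are genes, with the number of genes in brackets, set apart vertically for sight only; black diamonds with bars are the pooled share of a group with its exact 95% interval, and the dashed line is the median share of stored transcripts, 2.09%. The pooled shares of the 7 groups lie between 1.07% and 1.47%, with intervals that overlap. For stored transcripts the pooled share was 4.39%, above their median. The rule keeps every share under 2%.

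Among themselves the members' pooled shares by role were close. They were 1.28% for gene families and predicted genes, 1.20% for transcription, 1.33% for chromatin and DNA replication, 1.07% for RNA processing, 1.47% for stress and ubiquitin, 1.15% for metabolism and membranes, and 1.08% for the rest. The intervals of these groups overlapped. The rule kept every share under 2% and roles were assigned with values in view, so nothing is read from this closeness. The share of a member had a Spearman rho of 0.22 with its 2-cell reads and, over 87 members, 0.05 with its gene span, given as descriptions across genes of one column. Both the share and the 2-cell reads were limited by the rule.

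**Figure D3:**
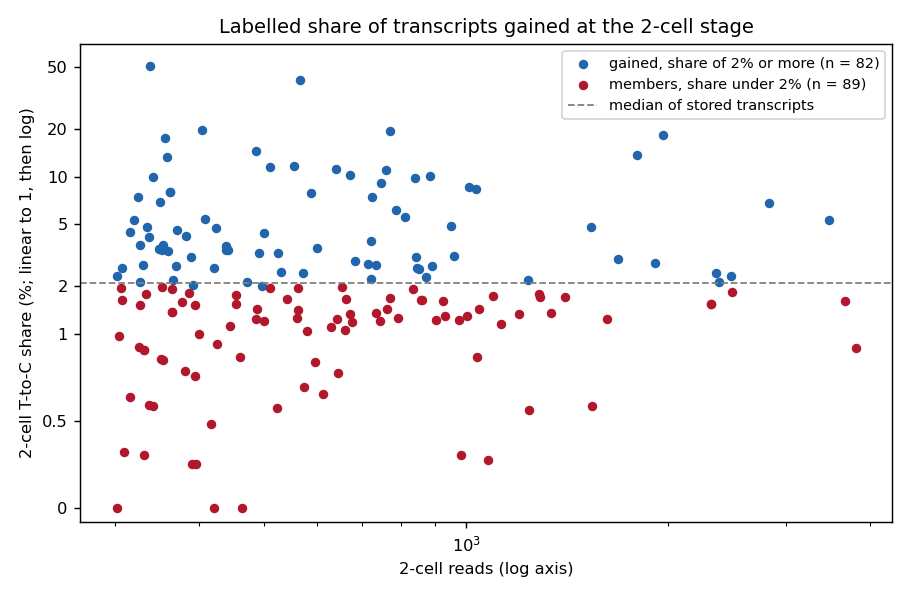
T-to-C share in 2-cell embryos against 2-cell reads (log axis) for the 171 gained genes; the y axis is linear to 1% and logarithmic above. Red points are the 89 members, blue points the 82 other gained genes, and the dashed line is the median share of stored transcripts, 2.09%. Points crowd on both sides of the 2% limit, with no gap there.

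Over all members 824 of 66293 reads in 2-cell embryos were T-to-C reads, a pooled share of 1.24% (1.16% to 1.33%). The median member had 1.23%, and shares ran from 0% to 1.99%. The other gained genes had a pooled share of 6.42% and a median of 4.02%; the rule set this difference. The limit did not mark a gap. Just inside it lay Znhit3, a factor of small nucleolar ribonucleoprotein assembly, and Med29, a Mediator subunit, both at 1.99%, and the exocyst subunit Exoc8 at 1.96%, and outside it Snapc2 at 2.02% and Rbbp6 at 2.12%. For the limit on 2-cell reads, Fam38b, Gmeb2 and Spic lay inside with 302, 304 and 306, and Cdk5r1, Ehd2 and Sox1 outside with 296, 295 and 294. For that on WT zygote reads, Etv5 and Purb with 20 and Cd24a with 19 lay inside, and Lmx1a and Nr2c2 with 21 and Kpna1 with 22 outside.

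A share under 2% was not particular to gained transcripts. Of the 2569 genes with at least 300 reads in 2-cell embryos, 46.6% had a share under 2%, and of the stored transcripts 46.8%; of the 171 gained genes 52.0% did, the 89 members. The median share was 1.96% for the gained genes, 2.09% for stored transcripts and 2.11% for all. Grouped by WT zygote reads, family names included, the medians were 2.03% for at most 20 reads, 2.16% for more and up to 100, 2.13% for more and up to 300, 2.09% for more and up to 1000 and 2.09% above. A member's share was therefore in the lower part of the range that transcripts stored in the zygote also had in this column.

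**Figure D4:**
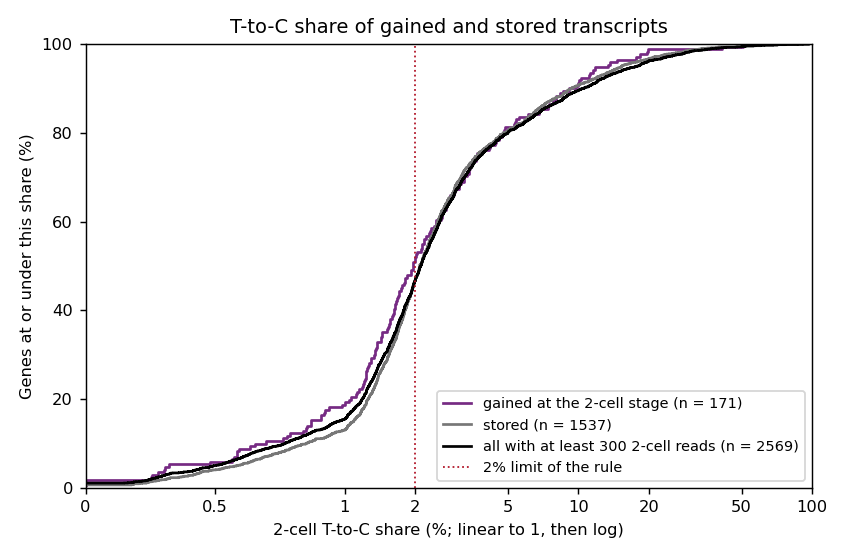
Cumulative distribution of the T-to-C share in 2-cell embryos (x axis, linear to 1% and logarithmic above) for the 171 gained genes, the 1537 stored transcripts and all 2569 genes with at least 300 reads; the y axis is the percentage of genes at or under a share. At the 2% limit (dotted line) the 3 curves stand at 52.0%, 46.8% and 46.6%.

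Single members were seldom told from the median by their own depth. The upper end of the interval was below 2.11% for 23 of the 89 members (25.8%), among them Gm4340, Gm10697, Gal3st2, Gm12794, Nrarp and Rpp25. The limit of 2% raises this share: over all 171 gained genes the same held for 13.5%, against 18.5% of stored transcripts and 17.3% of all genes with at least 300 reads. For the other 66 members the interval included that median. With 7 reads counted as 1 molecule, as in null zygotes, the interval of 0 members lay below it. Under 1% lay 32 members (36.0%). The authors' deposited table calls a gene positive or negative for labelling, by a rule not given in the sources used here. It called 5 of the 89 members positive in 2-cell embryos, Gm4340, Gm10697, Gm10696, Gm10662 and Gm5891, and 33 of the 82 other gained genes. Of stored transcripts 41.3% were called positive. The call was made on the same column as the share that chose the members, so nothing is read from this difference.

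T-to-C reads in zygotes did not enter the rule, and null zygote reads entered only the choice between rows of a name, which 8 members had. In WT zygotes 11 of the members' 636 reads were T-to-C reads (1.73%, 0.866% to 3.07%), in 10 members. The median share of genes with at least 300 reads in that column was 2.17%, and the share over all its reads was 3.03%. Both lay inside the interval. In null zygotes 8 of 233 reads were T-to-C reads (3.43%), in 6 members, beside a median of 3.03% and a share over all reads of 3.86% there. With 7 reads counted as a molecule, the interval for null zygotes ran from 0.0767% to 15.8%, so these counts could not show whether the members' share differed between the 2 kinds of zygote.

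No member reached the floor of 21 reads, or 3 molecules, in null zygotes, which allows up to 3.37% of members. Of the 2247 other genes with at most 20 WT zygote reads and at least 20 2-cell reads, 99 (4.41%) did. Of the 82 other gained genes, which met the same read limits as the members, 1 (1.22%) did, with 21 reads. The highest member had 20 reads, 1 short of the floor, and these differences were not tested. The most null zygote reads were those of Nrarp (20), Rpl10l and Gata2 (19 each), Arih2 (17) and Tsc22d3 (16). Of the members 66.3% had 0 reads in null zygotes, against 64.2% of the 2247 other genes and 64.6% of the other gained genes. At least 7 reads were present for 15 members. One read was worth 0.337, 0.746 and 0.259 RPM, so low levels in null zygotes rest on the coarsest steps.

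**Figure D5:**
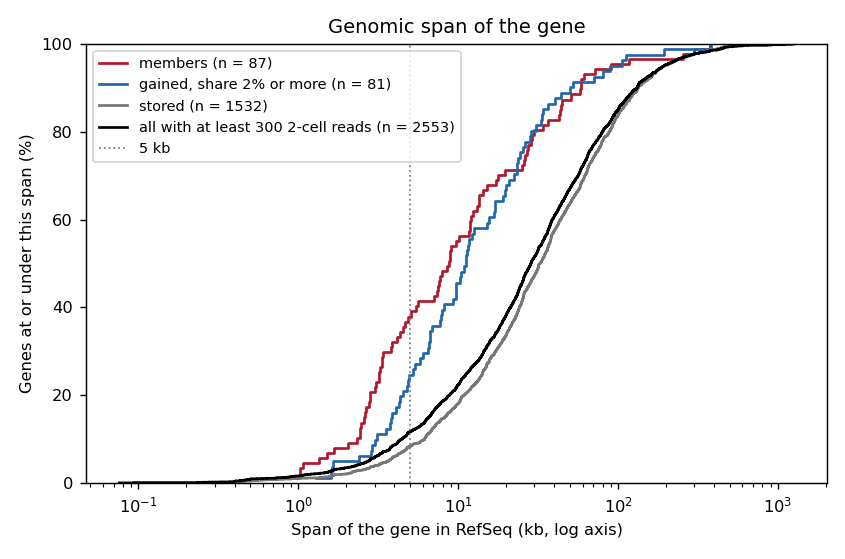
Cumulative distribution of gene span in RefSeq (x axis, kb, log) for 87 members, 81 other gained genes, 1532 stored transcripts and all 2553 genes with at least 300 2-cell reads and a span; the y axis is the percentage of genes at or under a span. At 5 kb (dotted line) the curves stand at 37.9% for members, 24.7% for the other gained genes, 8.36% for stored transcripts and 11.7% for all.

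The members' genes had a shorter median span than stored transcripts. Their span from start to end, which counts introns, had a median of 8.79 kb (quartiles 3.24 and 26.5 kb), against 11.1 kb for the other gained genes, 32.4 kb for stored transcripts and 28.5 kb for all with at least 300 2-cell reads. Under 5 kb lay 33 of 87 members (37.9%), 20 of 81 other gained genes (24.7%), 8.36% of stored transcripts and 11.7% of all. The gene families and predicted genes held 12 of the 33. Outside them the members' median was 10.9 kb, and 21 of 70 lay under 5 kb. Members under 5 kb included Nrarp, Hes1, Jun, Ier2, Ier5, Cebpa, Pou3f1, Rpp25 and H2afz. These differences in span were not tested. Members with a span under 5 kb had a pooled share of 1.18% (1.06% to 1.30%) and the longer ones 1.31% (1.20% to 1.44%), with intervals that overlapped. The rule kept all of these shares under 2%.

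Of 5 gene lists, the early 2-cell genes held the most members, and theirs was the longest list, with 64 names. Of 48 such genes with at least 20 reads over the 3 columns, 42 were at least 4-fold higher in 2-cell embryos than in WT zygotes and 0 lower, and their median log2 ratio was 6.75, against 0.03 over all genes, of which 18.7% were higher and 14.9% lower. Members were 6 of them, B020004J07Rik, Ddit4l, Gm10696, Gm12794, Gm4340 and Ubtfl1, and other gained genes 7, BB287469, Gm5662, Prmt6, Sp6, Spz1, Trim43a and Trim43b. Over all 11262 genes tested, 89 were members. The read limits fixed the gain of the 13 members and other gained genes in the list. Of the other 35, 29 were higher. These 35 still hold genes such as Slc34a2 and Dub1a, left out by name, which met the same read limits. The list was also chosen with earlier results of these data known, so nothing is read from the 42 of 48 or the 29 of 35. Of the 48, 39 had under 20 reads in both zygote columns together and passed the filter through the 2-cell column, and of the other 9, 4 were higher. The share over all genes with at least 20 zygote reads was not computed, so nothing is read from the 4 of 9. Of 8 Sp transcription factors 5 were higher and 0 lower, of 6 protein arginine methyltransferases 2 and 0, and of 26 genes of phosphoribosyl pyrophosphate and nucleotide synthesis 10 and 2; none of these was a member. Of the gained genes among them, Prmt6 and Prps1 had 2356 and 1912 reads in 2-cell embryos and shares of 2.42% and 2.82%, above the limit. Of 5 carriers of lipid-modified proteins 1 was higher, the member Unc119b, whose gain the rule fixed, and 2 lower. Without gained genes the higher were 4 of 7, 1 of 5, 8 of 24 and 0 of 4 in these lists, in that order. Among genes with at least 20 reads in both zygote columns together, the higher were 0 of 3, 1 of 5, 1 of 15 and 0 of 3. The rest passed the filter through the 2-cell column, so nothing is read from their gain.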

How the data were processed

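The authors deposited 1 table of counts with 1 set of columns per group, which gives, per the file headers, a read count and a T-to-C read count for each row, and a call. The labels list 2 samples per group; whether a column merges both is unknown, and for the aligner, counting tool and handling of duplicates nothing is given in the sources used here. Their genome build was mm10, per the submitters' processing notes. Of 30493 rows, 47 had a date for a name and were left out; of rows with one name the one with the most reads was kept, which left 23259 names, 23013 of them in RefSeq on GRCm38.p6. Columns were scaled with TMM factors of 0.988, 1.06 and 0.959 (WT zygotes, null zygotes, 2-cell embryos; edgeR 4.0.16 in R 4.3.3). Scripts used Python 3.11.15, pandas 2.3.3, scipy 1.17.1 and matplotlib 3.10.9. Shares have exact Clopper-Pearson, levels exact Poisson and folds exact conditional binomial 95% intervals. A fold count added 0.5 reads and took genes with at least 20 reads over the 3 columns and a ratio of at least 4. This step was tested on simulated data with independent reads and large changes set in deeper genes only. It therefore did not test reads that come in groups, or changes in genes near 20 reads.

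The planned edgeR test needs columns per sample and was not run. Of 969 genes with 3 to 5 reads predicted in null zygotes from WT zygote reads, 54.9% had 0. This gives 6.63 reads per molecule if levels were equal in both, which was not tested. In null zygotes 184 genes had 1 read. In the main results 7 reads per molecule were used in that column only. Transcript length, exon number and transcript base composition were not analysed here; gene span took their place. Named genes were the 20 members with the most 2-cell reads, the 5 lowest shares from 500 reads up, the 5 with the most null zygote reads, the 3 on each side of each limit (1 of these is not reported here), and list members; others are said to be named after their values were seen. Roles were assigned by hand with values in view. The members and lists were chosen with earlier results of these data known. RefSeq promoters on GRCm38.p6 matched 68 members. Alternatives were RLE or total scaling, other limits, summed rows, 7 reads per molecule, no filter and other folds.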

Additional observations from a re-analysis of the deposited data

How the results depend on the processing

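Of 135 values recomputed under an alternative, 101 kept within their limits (1.5 times for a count, the counting interval for a share or level) and 34 moved. Some of those that kept could not change, such as the number of members and their pooled share under other scaling. No paired analysis was possible because the table has 1 set of columns per group, and for that reason the edgeR quasi-likelihood test, DESeq2, a replicate block and leaving out a replicate were not run. The summed 2-cell level of the members, 17186 RPM, was 16303 with the rows of a gene summed, 11646 with at most 10 WT zygote reads, 13483 with at least 500 2-cell reads, 5267 with a share under 1%, 23211 under 3%, 19222 with no family left out, 19519 with RLE and 16489 with column totals. The 89 members became 51 with at least 500 reads and 32 with a share under 1%. The 23 members with an interval below 2.11% became 14 with at least 500 reads and 0 with 7 reads per molecule. The members' pooled share of 1.24% became 0.645% and 1.56% with limits of 1% and 3%. Their summed level in null zygotes, 174 RPM, was 79.1, 91.0, 69.4 and 253 with at most 10 WT zygote reads, at least 500 2-cell reads, and shares under 1% and 3%; 15 members reached a floor of 7 reads, against 0 at 21. Of all genes, 2106 were higher and 1677 lower at 4-fold; these were 3345 and 3157 with no filter, 1090 and 988 from 100 reads up, and 3534 and 3302 at 2-fold. Higher among the carriers of lipid-modified proteins were 2 with RLE, no filter or 2-fold, against 1, and lower was 1 from 100 reads up, against 2. Lower were 1 arginine methyltransferase with no filter, against 0, 2 early 2-cell genes at 2-fold, against 0, and 1 and 7 nucleotide synthesis genes from 100 reads up and at 2-fold, against 2; 8 Sp factors were higher at 2-fold, against 5. Changes under other limits come from fewer or more genes in the set; the cause of the others was not tested. Depth limits single members: at 300 reads a share of 2% is 6 reads.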

Other observations

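The family names that the rule leaves out held 27 further genes within the same read limits, of which 9 also had a share under 2% in 2-cell embryos. Zfp352, a zinc-finger gene used as a marker of the 2-cell state, had 7, 0 and 3757 reads (WT zygote, null zygote, 2-cell), and 42 of the 3757 were T-to-C reads (1.12%). Zfp707 had 10, 0 and 1218 reads and 4 T-to-C reads (0.328%). Within the Tdpoz family Tdpoz5 had a share of 1.61% and Tdpoz2 1.60% of 375 reads, while Tdpoz4 had 10.8% of 2678 reads, Tdpoz1 12.1% of 1225 and Tdpoz3 11.2% of 641. Rprl3, a copy of the RNase P RNA gene, had 51.6% of 2093 reads. These values use 1 column per group, and related copies may share reads.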
